A study of Mus musculus with 6 samples.

Results

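The immunoglobulin heavy chain variable (Ighv) segments are the rows of the deposited expression table whose symbol begins with Ighv, 146 of 27761 rows. They were compared in RNA of mouse bone marrow B220+ cells, with 3 libraries labelled WT and 3 labelled PELI2 knockout, whose titles read PELI2-CKO. B220 is the form of CD45 found on B-lineage cells from the pro-B stage on and on plasmacytoid dendritic cells. The labels give no strain, sex, age, Cre driver or exons removed, and do not say whether replicates are separate animals. Each p-value therefore measures only the spread between these libraries, which may in part be technical.

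A B cell builds its heavy chain gene by joining 1 variable, 1 diversity and 1 joining segment on chromosome 12, so that a clone and its offspring transcribe mainly a single rearranged Ighv segment. Variable segments close to the diversity segments are called proximal. The RAG1 and RAG2 recombinase reaches them readily, whereas distal segments are joined efficiently only after the locus contracts, a step that depends on factors such as Pax5 and Yy1. Plasma cells, which secrete antibody, hold far more immunoglobulin mRNA per cell than other B-lineage cells, and most of them carry little B220. A bulk library therefore adds up many clones, weighted by how much RNA each cell makes.

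Of the 146 members 108 were annotated as genes and 38 as pseudogenes, in 16 subgroups of related sequence. All lay on the minus strand of GRCm38 chromosome 12 between 113572927 and 116010093, a span of 2437 kb, where the GENCODE M21 annotation holds 185 Ighv genes. Values are FPKM, fragments per kilobase of transcript, scaled to the library's mapped reads. A segment was tested where it reached 1 FPKM in at least 3 libraries, which 110 members did, 102 genes and 8 pseudogenes. The other 36, 30 pseudogenes and 6 genes, never exceeded 1.66 FPKM. None of the 146 was at 0 in every library of 1 group and above 0 in every library of the other. Depth worked out from the low values was 16600000 to 18100000 reads per library. Peli2, the targeted gene, measured 2.03, 2.54 and 1.99 FPKM in WT replicates 1 to 3. The libraries labelled PELI2 knockout had 3.07, 2.70 and 2.47 FPKM. Their mean was not below that of WT and the groups overlapped, so every direction here is that of a label. They are called knockout-labelled in what follows.

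The cell type label was checked against marker genes. All 17 B-lineage genes were detected, among them Cd79a, a signalling chain of the B cell receptor, at 724, 602 and 583 FPKM in WT and 488, 504 and 516 FPKM under the knockout label. Fold changes of the 17 were negative for 14 and positive for 3. Ptprc, the gene of CD45, had means of 42.5 FPKM in WT and 42.8 FPKM under the knockout label. Marker lists of other marrow cells had positive fold changes in every member. Their median log2 fold changes were 0.42 for 15 granulocyte genes, 0.48 for 8 monocyte genes, 0.46 for 8 erythroid genes and 0.31 for 8 genes of plasmacytoid dendritic cells. Their summed levels moved as well: the granulocyte sum ran from 7827 to 10837 FPKM in WT and from 12270 to 14483 FPKM under the knockout label. The erythroid sum ran from 9043 to 13217 FPKM in WT and from 13743 to 17640 FPKM under the knockout label. The part of these cells in the Ighv values was not tested. Fewer cells of a type and less RNA per cell cannot be told apart in bulk RNA.

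PELI2 knockout replicates 1 and 2 carried nearly the same set of Ighv segments, and this bears on every comparison below. Among the 80 tested segments with a mean of 10 FPKM or more, 79 lay within 1.5-fold between these libraries. The same count was 31 between replicates 1 and 3, 34 between replicates 2 and 3, and 34, 43 and 36 in the 3 pairs of WT libraries. Relative to the library's Ighv sum, the median segment differed 1.08-fold between replicates 1 and 2 and 1.29- to 1.57-fold in the other 14 pairs of libraries. Over the 110 tested segments Pearson's r of log2(FPKM + 1) was 0.989 for that pair and 0.903 to 0.951 for the others, a description across segments that share their libraries.

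**Figure D1:**
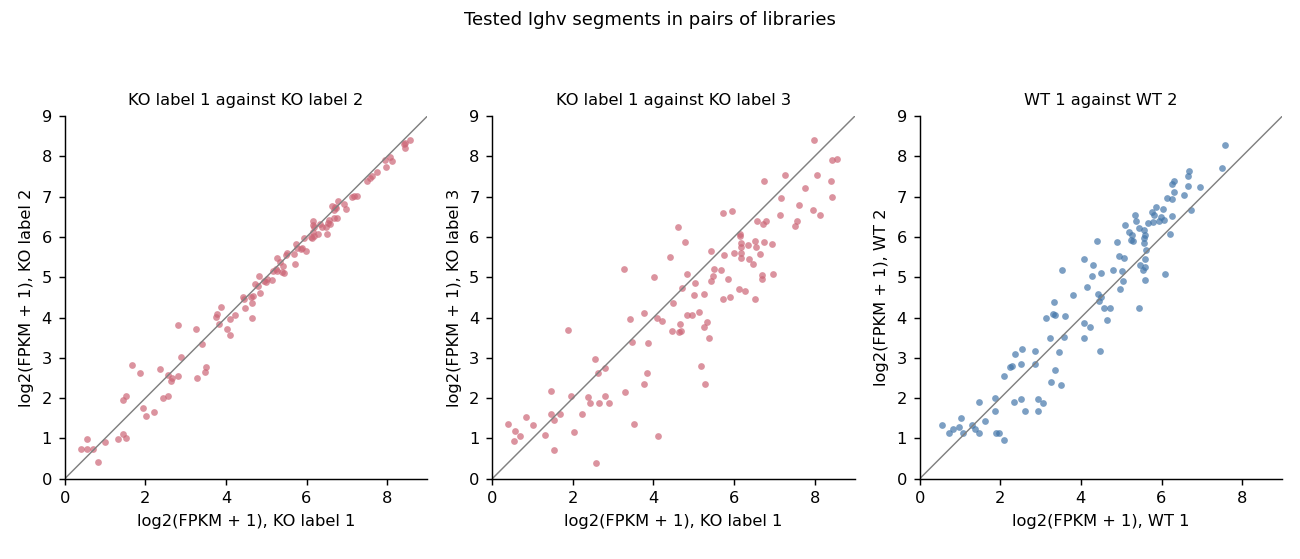
Levels of the 110 tested Ighv segments, as log2(FPKM + 1), in 3 pairs of libraries, where KO label is PELI2 knockout and each point is 1 segment. Points of replicates 1 and 2 hug the diagonal of equal levels, with r = 0.989, while replicates 1 and 3, and WT replicates 1 and 2, scatter widely around it.

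The likeness also held for kappa light chains and stood out less in other genes. A chi-square of the recovered read counts gives about 1 per degree of freedom when libraries differ by sampling alone. It was 2.64 for Ighv segments between replicates 1 and 2, against 17.7 to 47.9 in the other 14 pairs. For the kappa light chain variable (Igkv) segments, which are joined separately on chromosome 6, it was 3.26 against 16.9 to 59.6. For all other genes it was 2.36 against 3.31 to 17.9, so that there the pair stood close to the next pair. The libraries differed by more than sampling noise, but the chi-square cannot tell separate animals from separate libraries of 1 animal. They were kept as 2 replicates, as labelled, and the main Ighv results are also given with their mean counted as 1 library. For gene lists and constant regions, p-values are given only with both kept as replicates. The labels do not say whether they share an animal, a pool or a culture.

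**Figure D2:**
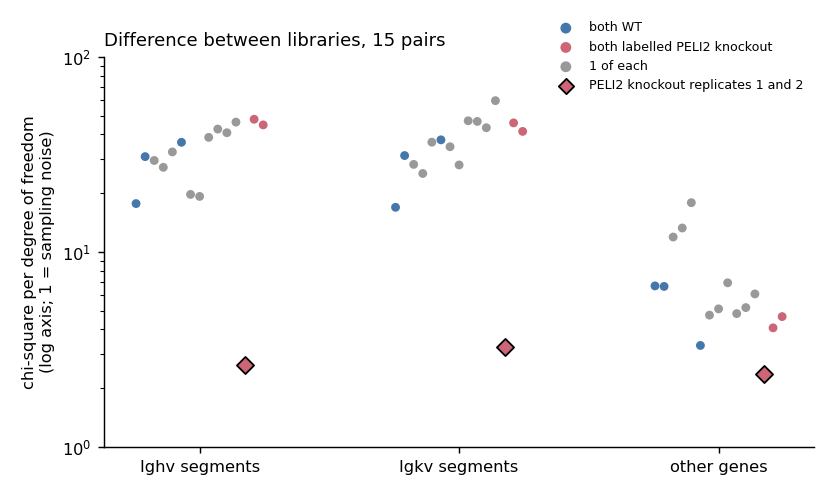
Chi-square per degree of freedom between each of the 15 pairs of libraries, on a log axis, for Ighv segments, Igkv segments and all other genes; colours give the groups of the pair. PELI2 knockout replicates 1 and 2, the outlined diamond, lie at 2.64 for Ighv and 3.26 for Igkv segments, with the next pair at 17.7 and 16.9.

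Summed over all segments, Ighv RNA was highest in those replicates. The sum was 3680, 5173 and 4885 FPKM in WT replicates 1 to 3 and 7313, 6740 and 4873 FPKM in PELI2 knockout replicates 1 to 3. Replicate 3 of the knockout label lay inside the WT range, so the groups overlapped. The ratio of the group means was 0.46 on the log2 scale, or 0.38 with replicates 1 and 2 counted as 1.

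Constant regions of the heavy chain split by class. Ighm, the constant region of the first class made and the one used by immature B cells, stood at 2898, 2351 and 2258 FPKM in WT and at 2086, 2111 and 1979 FPKM under the knockout label. It was thus lower in each knockout-labelled library (limma adjusted p = 0.3205, not past the threshold). The constant regions of the switched classes IgG and IgA together gave 1049, 2028 and 1988 FPKM in WT and 3666, 3263 and 2044 FPKM under the knockout label. That sum was lowest in WT replicate 1 and highest in knockout replicates 1 and 2, which also had the lowest and the highest Ighv sums.

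Igkv sums followed the same order at the ends, at 3139, 4901 and 4441 FPKM in WT and 7019, 6390 and 4700 FPKM under the knockout label. Jchain, which links the chains of secreted IgA and IgM, stood at 139, 273 and 238 FPKM in WT and 417, 379 and 264 FPKM under the knockout label. Of 16 plasma cell genes 11 had a higher and 5 a lower mean, and their sum was 923, 1001 and 989 FPKM in WT and 1186, 1135 and 994 FPKM under the knockout label. Jchain is 1 of the 16, and its group means of 217 and 353 FPKM differed by more FPKM than those of any other. The sum therefore leans on Jchain and cannot by itself show whether the list rose. Before adjustment (limma p under 0.05), 6 of the 16 were higher and 2 lower, beside 9.2% and 8.88% of all genes. None passed after adjustment. Slpi stood at 31.1, 37.5 and 44.4 FPKM in WT and 59.8, 59.7 and 59.7 FPKM under the knockout label. Xbp1 stood at 50.6, 56.2 and 60.4 against 77.7, 70.9 and 67.4 FPKM. Ly6c2, with a higher mean, is on the monocyte list as well. Sdc1, the surface marker of plasma cells, was among the lower ones, at 24.3, 20.5 and 20.5 FPKM in WT and 19.2, 18.8 and 16.02 FPKM under the knockout label. The part of plasma cells in the Ighv sums was not tested.

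**Figure D3:**
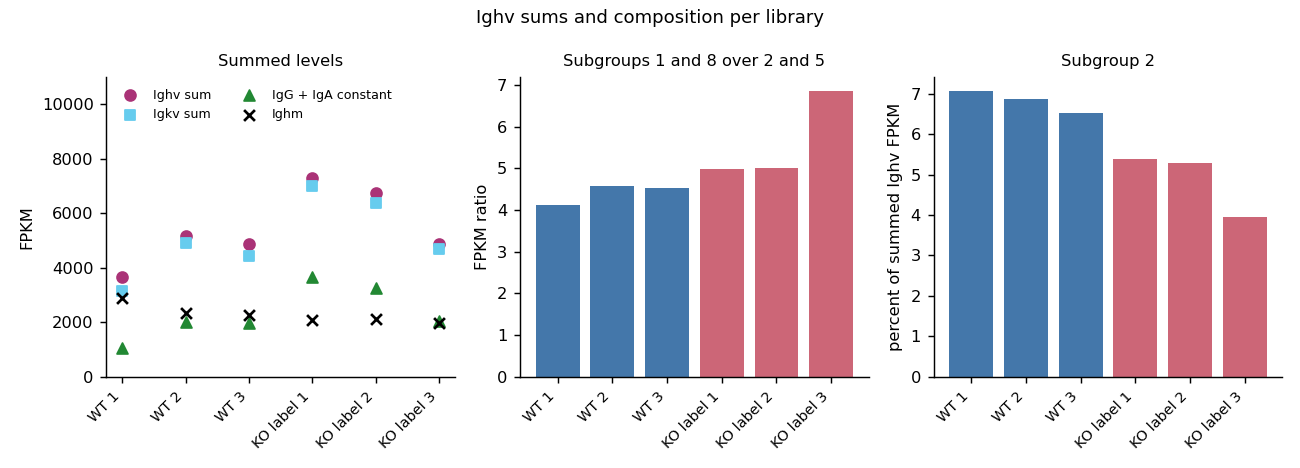
Per library, summed FPKM of Ighv and Igkv segments and of IgG and IgA constant regions with Ighm (left), the ratio of subgroups 1 and 8 to subgroups 2 and 5 (middle) and the share of subgroup 2 (right), with WT in blue and the PELI2 knockout label in red in the bars. The Ighv sum runs from 3680 to 7313 FPKM and the groups overlap, while the bars of the ratio and of subgroup 2 do not overlap between groups.

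The comparison of the groups asks which segments differ with the knockout label. No Ighv segment passed an adjusted p under 0.05 (limma on log2(FPKM + 1), Benjamini-Hochberg over 12953 genes), on either side. In the background of all tested genes 0.0232% were called higher and 0% lower. Before adjustment (p under 0.05), 22 segments were higher and 4 lower, 20% and 3.64% of the 110 tested. The same shares over all tested genes were 9.2% and 8.88%. With replicates 1 and 2 counted as 1 library, 16 segments were higher and 2 lower, against 6.96% and 5.81% of all genes. The smallest limma adjusted p of any segment was then 0.318.

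Fitted fold changes of the 110 tested segments were positive for 76 and negative for 34, with a median of 0.28 against -0.014 for all genes, and 66 and 44 with a median of 0.18 when replicates 1 and 2 counted as 1. These medians include the difference in summed level. Rescaling each library to the same Ighv sum lowers the fold changes by construction. The median was then -0.16, with 47 positive and 63 negative. The count at an unadjusted p under 0.05 was then 7 on the higher and 15 on the lower side, beside 9.1% and 8.96% of all genes in that fit.

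The 3 knockout-labelled libraries did not share their high segments equally. Of the 110 tested segments, 57 lay above all WT libraries in replicate 1, 49 in replicate 2 and 24 in replicate 3. Replicates 1 and 2 had 44 of these in common, replicates 1 and 3 had 17, and all replicates 14. Below all WT libraries lay 10, 16 and 30 segments in replicates 1, 2 and 3, of which 4 were common to all. Groups were thus apart for 14 segments on the higher side, 12.7%, and 4 on the lower side, 3.64%, beside 11.5% and 14.3% of all tested genes. Taken as shares of the Ighv sum, 6 of the 110 segments were apart on the higher and 16 on the lower side. The lower count is close to the 14.3% that all tested genes gave in FPKM. Such shares were not taken for other genes. For 9 segments replicates 1 and 2 lay above every WT library and replicate 3 below every one. The distal-most tested segment, Ighv1-85 (chromosome 12, 116000028 to 116000461), was one of them. It stood at 47.3, 42.7 and 41.6 FPKM in WT and 76.4, 66.7 and 24.3 FPKM under the knockout label.

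Ighv1-20 had the smallest p of all segments. This subgroup 1 segment (ENSMUSG00000095761, chromosome 12, 114723772 to 114724205) stood at 9.33, 5.48 and 11.4 FPKM in WT and 43.6, 46.3 and 31.7 FPKM under the knockout label. Every knockout-labelled library, replicate 3 included, was above every WT library. The log2 fold change was 2.13 ± 0.25 (SE; limma adjusted p = 0.0908), and 2.04 ± 0.30 with replicates 1 and 2 as 1 library (limma adjusted p = 0.318). About 57.8, 31.8 and 68.8 reads stood behind the WT values and 276, 276 and 200 behind the others. Its share of the Ighv sum was 0.25%, 0.11% and 0.23% in WT and 0.60%, 0.69% and 0.65% under the knockout label, so the groups were apart in share too.

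Reads of 50 bases can fit more than 1 segment, and Ighv1-20 has a near copy, Ighv1-37 (chromosome 12, 114896238 to 114896671). The last 150 bases of their variable exons, which end where the diversity segment is joined, are printed from the GENCODE M21 transcripts on GRCm38, with capitals at the 2 bases that differ (chr12:114723772-114723921 and chr12:114896238-114896387, minus strand).
Ighv1-20: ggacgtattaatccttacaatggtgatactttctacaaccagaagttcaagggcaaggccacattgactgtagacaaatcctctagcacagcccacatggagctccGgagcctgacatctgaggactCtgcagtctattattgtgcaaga
Ighv1-37: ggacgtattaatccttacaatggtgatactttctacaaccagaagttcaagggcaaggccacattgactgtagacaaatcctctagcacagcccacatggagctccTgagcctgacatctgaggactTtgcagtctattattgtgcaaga
Of all 50-base windows of Ighv1-20, 62.3% occur in no other annotated transcript. Ighv1-37 stood at 6.59, 2.23 and 3.96 FPKM in WT and 5.98, 13.03 and 3.15 FPKM under the knockout label, with overlapping groups. The sum of both was 15.9, 7.71 and 15.4 FPKM in WT and 49.5, 59.3 and 34.9 FPKM under the knockout label, still apart, whichever way reads were divided within this pair.

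In proximal subgroup 2, a pair of near copies differed between the groups in opposite directions. Ighv2-2 (ENSMUSG00000096464, chromosome 12, 113588267 to 113588702), the highest segment of subgroup 2, stood at 105, 101 and 103 FPKM in WT and 80.3, 79.0 and 54.6 FPKM under the knockout label. The WT values lay within a few FPKM of each other and above every knockout-labelled library (log2 fold change -0.55 ± 0.15, SE; limma adjusted p = 0.171, not past the threshold). Ighv2-4 (ENSMUSG00000095866, chromosome 12, 113653291 to 113653724) stood at 3.71, 5.84 and 4.97 FPKM in WT and 9.62, 9.22 and 14.6 FPKM under the knockout label. Its groups were apart the other way (log2 fold change 1.04 ± 0.20, SE; limma adjusted p = 0.142). With knockout replicates 1 and 2 as 1 library, the limma adjusted p was 0.344 for Ighv2-2 and 0.344 for Ighv2-4.

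The ends of these exons show how little separates them, with capitals at the 5 bases that differ (chr12:113588267-113588416 and chr12:113653291-113653440, minus strand).
Ighv2-2: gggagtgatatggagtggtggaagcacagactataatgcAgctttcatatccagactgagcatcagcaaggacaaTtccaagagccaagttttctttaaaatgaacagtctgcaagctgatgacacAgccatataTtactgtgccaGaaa
Ighv2-4: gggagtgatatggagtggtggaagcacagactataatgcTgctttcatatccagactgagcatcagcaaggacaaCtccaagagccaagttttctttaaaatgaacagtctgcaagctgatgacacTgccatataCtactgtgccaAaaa
Unique windows of 50 bases made up 44.6% of Ighv2-2 and 44.5% of Ighv2-4, so the values of both depend on how reads were divided and are uncertain. Their sum was 109, 107 and 108 FPKM in WT and 89.9, 88.2 and 69.1 FPKM under the knockout label, lower in each knockout-labelled library.

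Ighv5-9 (ENSMUSG00000095285, chromosome 12, 113661769 to 113662293), in subgroup 5, had knockout-labelled values close to each other. It stood at 15.9, 10.2 and 10.1 FPKM in WT and 25.2, 27.6 and 25.4 FPKM under the knockout label (log2 fold change 1.08 ± 0.16, SE; limma adjusted p = 0.113). Its limma adjusted p was 0.344 with knockout replicates 1 and 2 as 1 library. Left without WT replicate 1, it passed (limma adjusted p = 0.0128), and its log2 fold change was 1.28. The WT libraries then left, at 10.2 and 10.1 FPKM, are nearly alike, so that p-value may rest on too small a spread. As a share of the Ighv sum, Ighv5-9 held 0.43%, 0.20% and 0.21% in WT and 0.34%, 0.41% and 0.52% under the knockout label, with overlapping groups. Its near copy Ighv5-6 (chromosome 12, 113625506 to 113625956) stood at 40.0, 83.3 and 71.8 FPKM in WT and 106, 104 and 57.4 FPKM under the knockout label, with overlapping groups.

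Ighv5-9 and Ighv5-6 differ at 7 of the last 150 bases, given in capitals (chr12:113661769-113661918 and chr12:113625506-113625655, minus strand).
Ighv5-9: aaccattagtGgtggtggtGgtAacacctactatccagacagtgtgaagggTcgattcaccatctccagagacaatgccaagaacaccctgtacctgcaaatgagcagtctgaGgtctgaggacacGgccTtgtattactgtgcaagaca
Ighv5-6: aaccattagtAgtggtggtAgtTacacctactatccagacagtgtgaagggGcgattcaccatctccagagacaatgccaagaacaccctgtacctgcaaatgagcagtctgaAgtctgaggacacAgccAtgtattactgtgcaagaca
With 86.2% and 84.5% of windows unique, these segments are told apart better than the subgroup 2 pair. Their sum was 55.9, 93.5 and 81.9 FPKM in WT and 131, 131 and 82.8 FPKM under the knockout label, with overlapping groups. Ighv5-2 (chromosome 12, 113578504 to 113578990), a proximal segment that developing pro-B cells are known to rearrange early and often, is the most proximal tested. It stood at 25.4, 17.7 and 15.9 FPKM in WT and 17.7, 15.8 and 13.96 FPKM under the knockout label, with overlapping groups. Its share of the Ighv sum was 0.69%, 0.34% and 0.33% in WT and 0.24%, 0.23% and 0.29% under the knockout label. In share the groups were apart, as for 16 of the 110 segments on the lower side.

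Among the distal subgroups 1 and 8, Ighv1-9 (ENSMUSG00000094694, chromosome 12, 114583569 to 114584002) stood at 123, 150 and 131 FPKM in WT and 251, 212 and 336 FPKM under the knockout label. Here replicate 3 was the highest library (log2 fold change 0.96 ± 0.17, SE; limma adjusted p = 0.140). The limma adjusted p was 0.344 with knockout replicates 1 and 2 as 1 library. In knockout replicate 3 Ighv1-9 was 6.89% of the Ighv sum, against 2.67% to 3.43% in the other 5. Ighv8-12 (chromosome 12, 115647945 to 115648387), the highest segment of subgroup 8, stood at 62.3, 88.7 and 70.3 FPKM in WT and 195, 183 and 110 FPKM under the knockout label. Ighv1-77 (chromosome 12, 115861867 to 115862355) stood at 11.0, 10.4 and 10.1 FPKM in WT and 34.3, 29.5 and 16.6 FPKM under the knockout label. Groups were apart for both, with replicate 3 the closest to WT.

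Ighv1-78 lay at 30.2, 25.3 and 20.5 FPKM in WT and 44.3, 47.3 and 35.8 FPKM under the knockout label, and Ighv1-55 at 92.7, 131 and 78.5 against 215, 195 and 147 FPKM. These segments, too, were apart, and the limma adjusted p of the 4 last named ran from 0.142 to 0.157. Ighv1-77 passed without PELI2 knockout replicate 3 (log2 fold change 1.51; limma adjusted p = 0.00707), as did Ighv14-2 (1.10; limma adjusted p = 0.0393). That fit leaves only replicates 1 and 2 under the knockout label. Their segments were nearly alike, so its p-values may rest on too small a spread. Over all genes it called 16 higher, against 3 in the fit of all libraries. Ighv14-2, the highest of subgroup 14, stood at 75.1, 90.7 and 76.0 FPKM in WT and 180, 167 and 76.8 FPKM under the knockout label, so that replicate 3 was at the WT level.

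On the lower side the other segments of small p were mostly weak. Ighv8-11 stood at 2.05, 1.68 and 1.62 FPKM in WT and 0.46, 0.66 and 0.93 FPKM under the knockout label, which is about 13, 10 and 10 reads against 3, 4 and 6 reads. Ighv11-1 stood at 1.44, 1.53 and 2.46 FPKM against 0.47, 0.997 and 1.25 FPKM, and was apart as well. Both rest on few reads, and counting error alone is wide at that depth. Ighv7-1 (chromosome 12, 113896408 to 113896946), with all of its windows unique, stood at 66.7, 32.6 and 43.9 FPKM in WT and 31.5, 30.2 and 28.1 FPKM under the knockout label. Its groups were apart by a margin much smaller than the spread of the WT libraries. Ighv4-2, Ighv1-5, Ighv1-83 and Ighv2-6-8 had lower means with overlapping groups, and Ighv4-2 and Ighv1-83 are annotated as pseudogenes.

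**Figure D4:**
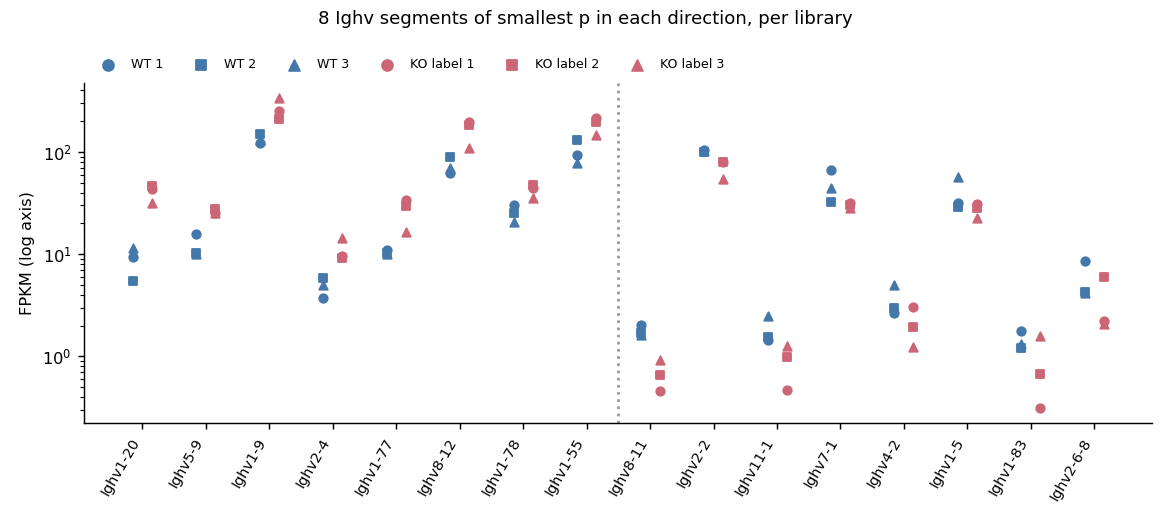
FPKM (log axis) of the 8 Ighv segments with the smallest p in each direction, higher to the left and lower to the right of the dotted line, with WT in blue, the PELI2 knockout label (KO label) in red and a marker shape per replicate. Ighv1-20 lies between 5.48 and 11.4 FPKM in WT and between 31.7 and 46.3 FPKM under the knockout label, and the 8 segments on the left are apart between groups.

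Of the 10 segments with the highest mean, 8 belonged to subgroup 1. Ighv1-81 (chromosome 12, 115920279 to 115920712) had the highest mean, at 190, 311 and 354 FPKM in WT and 377, 340 and 245 FPKM under the knockout label. Its share of the Ighv sum was 5.16%, 6.01% and 7.24% in WT and 5.15%, 5.04% and 5.02% under the knockout label. Ighv1-53 varied widely within each group, at 69.5, 124 and 327 FPKM in WT and 277, 237 and 92.9 FPKM under the knockout label. Ighv3-6, of subgroup 3, stood at 99.5, 181 and 111 FPKM in WT and 341, 316 and 166 FPKM under the knockout label. Ighv9-3, of subgroup 9, stood at 102, 196 and 157 FPKM in WT and 267, 251 and 184 FPKM under the knockout label. In FPKM of each of these, knockout replicates 1 and 2 were close to each other and replicate 3 stood away from them. As shares of the Ighv sum, replicate 3 was close to them for Ighv1-81. The same held for Ighv9-3, at 3.66%, 3.73% and 3.78% in knockout replicates 1 to 3, but not for Ighv3-6, at 4.66%, 4.69% and 3.41%.

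Ighv1-26 and Ighv1-18 are a further pair of near copies among the most abundant segments, and differ at 2 of the last 150 bases, in capitals (chr12:114788372-114788521 and chr12:114682632-114682781, minus strand).
Ighv1-26: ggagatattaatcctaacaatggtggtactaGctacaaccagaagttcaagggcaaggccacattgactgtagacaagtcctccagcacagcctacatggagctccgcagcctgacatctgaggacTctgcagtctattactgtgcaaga
Ighv1-18: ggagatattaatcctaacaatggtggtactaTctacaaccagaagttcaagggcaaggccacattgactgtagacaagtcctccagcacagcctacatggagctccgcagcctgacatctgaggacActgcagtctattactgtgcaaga
Ighv1-26 stood at 181, 208 and 224 FPKM in WT and 345, 295 and 238 FPKM under the knockout label, with groups apart. Ighv1-18 stood at 99.2, 152 and 125 FPKM in WT and 344, 322 and 125 FPKM under the knockout label, with replicate 3 inside the WT range. Unique windows made up 51.0% and 64.2% of these segments, and their sum of 280, 360 and 349 FPKM in WT and 690, 617 and 363 FPKM under the knockout label was apart between groups, with the lowest knockout-labelled library just above the highest WT library. Ighv1-64 and Ighv1-82, also among the highest by mean, overlapped between groups.

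Subgroup 2 took a smaller share of the Ighv sum in each knockout-labelled library. It held 7.06%, 6.86% and 6.53% of the Ighv sum in WT and 5.40%, 5.29% and 3.95% under the knockout label, with the groups apart. Without Ighv2-2 the shares of its other 8 members were 4.20%, 4.91% and 4.41% in WT and 4.298%, 4.12% and 2.83% under the knockout label, and the groups overlapped. Subgroup 5 held 7.55%, 7.39% and 7.15% in WT and 7.50%, 7.44% and 5.70% under the knockout label, where replicate 3 alone was low. Subgroups 8 and 9 took slightly larger shares in each knockout-labelled library. Subgroup 8 held 4.27%, 4.38% and 3.12% in WT and 4.47%, 4.85% and 4.86% under the knockout label, and subgroup 9 held 4.49%, 4.47% and 4.43% against 4.52%, 4.67% and 6.18%. Subgroup 1, the largest with 76 members, held 55.9% to 60.9% in WT and 58.9% to 61.2% under the knockout label.

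The 4 tested members of subgroup 9 and the 4 of subgroup 14 all had positive fold changes, with medians of 0.56 and 0.58; with equal Ighv sums 3 of 4 in subgroup 9 and 4 of 4 in subgroup 14 did, with medians of 0.12 and 0.13. In subgroup 3, under each scaling, 1 of 7 was positive, with Ighv3-6 as the exception. The phosphatidylcholine-binding antibodies of B-1 cells are known for Ighv11-2 and Ighv12-3. Ighv11-2 stood at 6.24, 7.96 and 11.7 FPKM in WT and 13.6, 18.2 and 9.37 FPKM under the knockout label, and Ighv12-3 at 9.91, 7.84 and 11.7 against 10.2, 5.32 and 9.57 FPKM, with overlapping groups in both. The highest segments of subgroups 4, 6, 7, 13 and 15 (Ighv4-1, Ighv6-3, Ighv7-3, Ighv13-2 and Ighv15-2) also overlapped, with log2 fold changes from -0.13 to 0.34. Ighv10-1, the highest of subgroup 10, was apart, at 47.0, 36.9 and 44.6 FPKM in WT and 93.0, 84.6 and 52.6 FPKM under the knockout label. Ighv16-1, the single member of subgroup 16, was listed at 0 in 5 libraries and at about 1 read in WT replicate 3.

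Along the locus, distal subgroups 1 and 8 were set against proximal subgroups 2 and 5. The ratio of their summed FPKM was 4.12, 4.58 and 4.54 in WT and 4.996, 5.01 and 6.85 under the knockout label, so that each knockout-labelled library was above each WT library. The mean log2 ratio differed by 0.33, by 0.41 with replicates 1 and 2 as 1 library, and by 0.18 without replicate 3. The proximal share was lower in each knockout-labelled library, at 14.6%, 14.2% and 13.7% in WT and 12.9%, 12.7% and 9.65% under the knockout label. The distal share overlapped, at 60.2%, 65.3% and 62.1% in WT and 64.4%, 63.8% and 66.1% under the knockout label. Without Ighv2-2 the ratio was 5.12, 5.31 and 5.37 in WT and 5.46, 5.52 and 7.74 under the knockout label, apart by less than the range of the WT libraries.

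Segment by segment, position told little. Median log2 fold changes were 0.14 for the 17 tested proximal segments, 0.08 for the 30 of the other subgroups and 0.37 for the 63 distal ones. With replicates 1 and 2 as 1 library they were -0.05, 0.03 and 0.24, so the proximal median changed sign. Against the WT mean, the proximal median was 0.58, 0.46 and -0.71 in knockout-labelled replicates 1, 2 and 3. Across the 110 segments, position and fold change had Pearson's r of 0.19 and Spearman's rho of 0.19, a description over segments that share their libraries and many near-identical sequences.

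**Figure D5:**
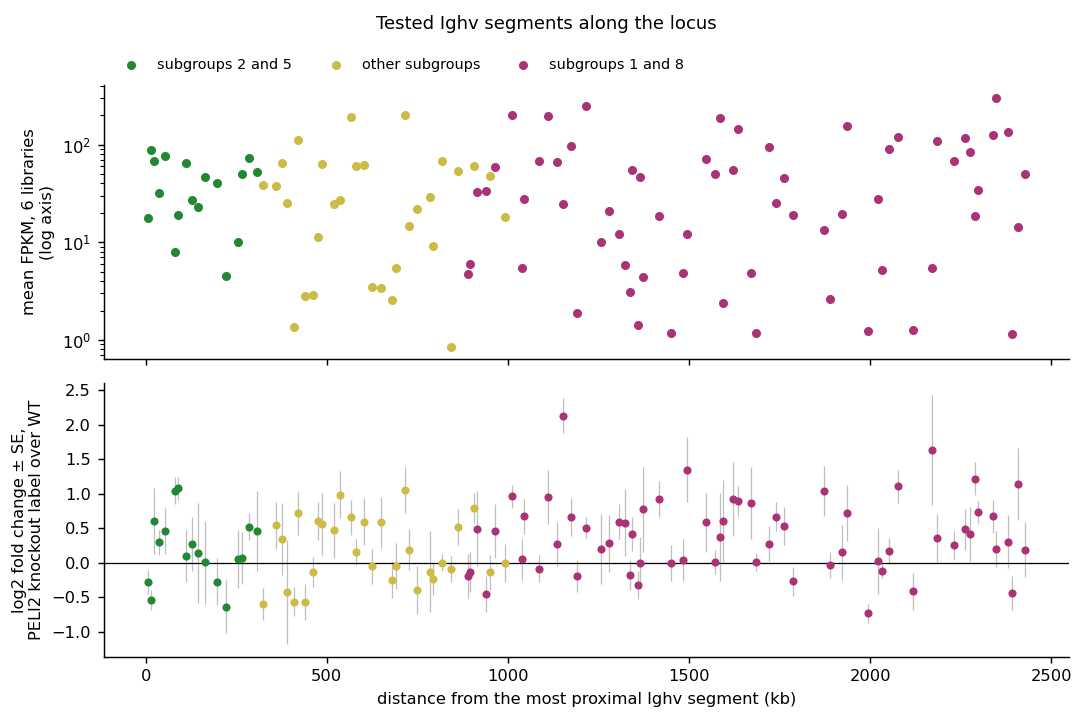
Mean FPKM over 6 libraries (top, log axis) and log2 fold change with its SE (bottom) of the 110 tested Ighv segments against their distance from the most proximal segment in kb, coloured by subgroups 2 and 5, subgroups 1 and 8, and all others. Fold changes run from -0.73 to 2.13, with Ighv1-20 highest, and 76 of 110 are positive.

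Evenness of the repertoire overlapped between the groups in one measure and not in another. The inverse Simpson number, which counts how many equally abundant segments would give the same concentration, was 52.5, 46.9 and 40.4 in WT and 43.1, 44.1 and 41.3 under the knockout label, overlapping. The 10 highest segments of each library took 31.2%, 34.6% and 37.6% in WT and 39.1%, 38.4% and 39.4% under the knockout label. In that measure the groups were apart, with WT replicate 3 close to the knockout-labelled libraries. Pseudogenes held 0.88%, 0.52% and 0.61% of the sum in WT and 0.32%, 0.34% and 0.51% under the knockout label, the highest knockout-labelled library lying just under the lowest WT one.

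Genes that act on the locus were read from lists of 20 V(D)J recombination genes and 32 locus regulators. None passed over all genes (limma). At an unadjusted p under 0.05, recombination genes counted 5 lower and 1 higher and regulators 15 lower and 2 higher, beside 8.88% lower and 9.2% higher over all genes. The recombination list had 17 negative and 3 positive fold changes, with a median of -0.09. Rag1, a subunit of the recombinase, stood at 119, 82.4 and 70.9 FPKM in WT and 59.8, 68.3 and 49.1 FPKM under the knockout label, with groups apart. Lig4, the ligase that seals the joined ends, stood at 17.3, 12.7 and 13.7 FPKM in WT and 9.78, 11.5 and 10.3 FPKM under the knockout label, and Xrcc6, the Ku subunit that binds broken ends, at 53.8, 44.7 and 44.4 against 36.2, 37.7 and 34.9 FPKM. Nbn, the recombination gene counted as higher, stood at 6.595, 8.05 and 7.39 FPKM in WT and 8.39, 9.45 and 8.92 FPKM under the knockout label.

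The regulator list had 25 negative and 7 positive fold changes, with a median of -0.13. Pax5, needed for contraction of the locus, stood at 123, 108 and 98.7 FPKM in WT and 85.5, 86.7 and 80.1 FPKM under the knockout label, and Ebf1, an early B-lineage factor, at 47.3, 40.4 and 39.2 against 30.4, 31.7 and 30.2 FPKM. Spi1, among the regulators counted as higher, stood at 54.0, 52.7 and 54.7 FPKM in WT and 59.5, 62.6 and 59.8 FPKM under the knockout label. All 9 surrogate light chain and pre-B cell receptor genes had negative fold changes, with a median of -0.35. The B-lineage list, which shares members with both, had a median of -0.34. In the same libraries the granulocyte and erythroid sums were higher, and the part of the mix of cells in these values was not tested.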

How the data were processed

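Messenger RNA of bone marrow B220+ cells was sequenced as single-end reads of 50 bases, per the labels' protocols. The submitters' processing notes name the tools RSEM 1.2.12, HISAT2 2.0.4, DESeq2 1.4.5 and Bowtie2 2.2.5 and the build GRCm38.p6, without roles; strand use is not given in the sources used here. The authors deposited FPKM per gene and library. Members and gene lists were chosen with earlier results of these data known.

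Genes with FPKM of at least 1 in 3 or more libraries were tested on log2(FPKM + 1), on which fold changes of low genes are understated, with limma 3.58.1 in R 4.3.3 (lmFit, eBayes with trend, two-sided, Benjamini-Hochberg over 12953 genes). Reads were worked out from FPKM steps: for genes with 1 transcript, 99.2% to 99.5% of 3752 to 3910 values under 6 reads were whole within 0.03 reads. The chi-square between libraries used segments with 20 reads or more. Intervals for counting were not drawn, since reads carry no molecular identifiers.

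Segments named in the text were the 8 of smallest p in each direction, the 10 highest by mean, the highest of each subgroup, the most proximal and most distal tested and Ighv5-2. Ighv1-37 was added after its values were seen. From other lists up to 6 genes of smallest p, the constant regions and Peli2 could be named. Jchain and Ptprc were chosen after their values were seen. Sequences are from GENCODE M21 transcripts; coordinates of all members matched the table's. Alternatives covered pseudocount, filter, scaling, model, replicate block and each library left out. Plots used Python 3.11.15 and matplotlib 3.10.9.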

Additional observations from a re-analysis of the deposited data

How the results depend on the processing

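No Ighv segment was called under 2 pseudocounts, 2 filters, 3 scalings of all genes, equal Ighv sums, no trend, library weights, the replicate block or knockout replicates 1 and 2 as 1 library (limma). Without single libraries 0 to 2 were called higher, and 0 lower. The count of 2 came without PELI2 knockout replicate 3, where only the near-alike replicates 1 and 2 remain. The labels do not say whether replicate numbers pair the samples. Same-numbered deviations from the group means correlated at r = 0.101, 0.036 and 0.090, and the other pairs at -0.107 to 4.53e-05. Each library correlated best with its own number, but these values are small and cannot decide the question. With the replicate block, 0 were called, and the counts before adjustment (p under 0.05) were 29 segments higher and 6 lower. Beside them stood 1310 and 1184 of 12953 genes.

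The same counts of segments were 22 and 4 in the reported fit, beside 1192 and 1150 of 12953 genes. They became 7 and 15 with equal Ighv sums, 4 and 11 with equal sums and knockout replicates 1 and 2 as 1 library, and 8 and 0 at a log2 fold change of at least 1. Over all genes the equal-sum fits gave 1179 and 1160, and 891 and 762 with those replicates as 1 library. At the fold change limit genes were not counted. Rescaling to a common total gave 19 and 5 segments, where the counts over all genes themselves moved to 726 higher and 2331 lower. Lower counts were 2 with a filter of 5 FPKM, beside 927 of 8185 genes. They were 2 with those replicates as 1 library, beside 753 of 12953 genes. Without single libraries the counts of segments ran from 15 to 39 higher, with 39 without PELI2 knockout replicate 3, and from 2 to 6 lower. Over all genes they ran from 861 to 1281 higher and from 692 to 1250 lower. Without replicate 3 they were 977 and 692, and that fit rests on the near-alike replicates 1 and 2. The median log2 fold change was -0.163 with equal sums and -0.162 when those replicates also counted as 1; it ran from 0.11 to 0.48 without single libraries. The log2 ratio of sums was 0 with equal sums, by construction. Without single libraries it ran from 0.33 to 0.62, and the difference in the log2 distal over proximal ratio from 0.18 to 0.41. The cause of the other changes was not tested.

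Of 679 alternative values for 36 named segments, 649 kept their direction. The sign changed in 11 segments, none of them called. With equal sums, log2 fold changes were -0.101 for Ighv4-1, -0.295 for Ighv7-3, -0.0837 for Ighv1-53, -0.261 for Ighv1-81, -0.152 for Ighv1-82 and -0.263 for Ighv1-85. With equal sums and replicates 1 and 2 as 1 library they were -0.0466 for Ighv5-6, -0.268 for Ighv7-3, -0.238 for Ighv1-53, -0.265 for Ighv1-81, -0.252 for Ighv1-82 and -0.430 for Ighv1-85, which was -0.0644 without the rescaling. Library weights gave 0.0483 for Ighv13-2, 0.0455 for Ighv6-3 and 0.0627 for Ighv15-2. Median of ratios gave 0.0059 for Ighv6-3 and 0.0052 for Ighv15-2, and quantile normalization 0.0024 for Ighv15-2. Without single libraries the ranges were -0.570 to 0.462 for Ighv13-2, -0.388 to 0.0231 for Ighv12-3, -0.0996 to 0.129 for Ighv6-3, -0.165 to 0.261 for Ighv15-2, -0.137 to 0.972 for Ighv1-53, -0.0737 to 0.376 for Ighv1-81 and -0.115 to 0.692 for Ighv1-85. Averaging replicates 1 and 2, and its combination with equal sums, were chosen after seeing the data. Segments near 1 FPKM rest on few reads, as Ighv8-11 shows with 3 to 13 reads per library.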
